A study of Mus musculus with 2 samples.

Results

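Tumor endothelial cells were the cells that the deposited annotation of colitis-associated colon tumors (CACs) places in its endothelial type, in either of both libraries. They numbered 223 of 38883 cells, 116 of 20312 in the *Mir34a* F/F library and 107 of 18571 in the *Mir34a* ΔMye library, as the labels name them. The *Mir34a* F/F mice carry loxP-flanked *Mir34a* alleles. The *Mir34a* ΔMye mice carry the same alleles and lose them in cells that express Cre from the *Lyz2* (LysM) locus, that is in macrophages, neutrophils and other myeloid cells. Endothelial cells are not the cells in which the deletion is driven, so the comparison asks how they differ between tumors of mice with and without *Mir34a* in myeloid cells. Mice of both genotypes were 6 to 10 weeks old when they received azoxymethane at 10 mg/kg and cycles of dextran sodium sulfate in the drinking water for 5 days each, at 2.5% in cycles 1 and 2 and at 2% in cycle 3, and tumors were taken at day 110. Each library pooled 6 to 8 tumors of 3 mice, so each genotype has 1 library, the genotypes could not be tested against each other, and every interval given here is a 95% interval that covers counting error only.

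Endothelial cells line blood and lymphatic vessels. They are kept alive and made to divide by VEGF ligands, whose receptors are encoded by *Flt1*, *Kdr* and *Flt4*. Vessels mature under angiopoietins, whose signalling involves *Tek* and *Tie1*. Sprouts are led by tip cells, which express the Notch ligand *Dll4* and genes such as *Esm1*, *Angpt2* and *Apln*. Arteries, capillaries, veins and lymphatics each have their own genes, and the veins of the gut carry the selectins and *Madcam1*, on which leukocytes halt before they leave the blood.

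The endothelial cells held 676757 UMIs (unique molecular identifiers, each standing for 1 captured mRNA molecule) in the *Mir34a* F/F library, with a median of 3964 per cell and a range of 827 to 28442. The *Mir34a* ΔMye library held 771461 in them, with a median of 4407 and a range of 634 to 28286. Over all cells, the medians were 4787 and 7716. The median mitochondrial share was 3.37% and 5.90%, and 1 and 7 endothelial cells were at 25% or more. The libraries shared 96 cell barcodes over all cells, and no endothelial cell had a barcode that the other library also held. The pri-miR-34a feature of the table had 2 and 0 UMIs in endothelial cells, and the Cre features and the hairpin, stem-loop and mature *Mir34a* features had none, so they do not check the label of either library. *Lyz2* had 6 and 3 UMIs in them, against 3892 and 1379 in macrophages. These counts are not at equal totals, since macrophages held 19470961 and 33225004 UMIs in all.

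Most cells held the fixed markers of the label, which were used to check it. In the *Mir34a* F/F library, 94 of 116 endothelial cells (81.0%) had a UMI of at least 2 of *Pecam1*, *Cdh5*, *Kdr* and *Flt1*, 15 had 1 of them and 7 had none. In the *Mir34a* ΔMye library, 82 of 107 (76.6%) had at least 2, 14 had 1 and 11 had none. Among all other cells, at least 2 markers were found in 1.06% and 1.65%. *Cdh5*, which encodes the adherens junction protein VE-cadherin, had a UMI in 66.4% and 60.7% of endothelial cells. In epithelial cells, which should lack it, the share was 1.21% and 0.902%, at median depths of 5316 and 6623 UMIs. With each cell thinned to 1000 UMIs, which left out 5 and 1 endothelial cells, *Cdh5* was found in 31.5% (23.0 to 41.0) and 21.7% (14.3 to 30.8) of endothelial cells and in 0.246% and 0.175% of epithelial cells. *Pecam1*, a cell contact protein of endothelium that leukocytes also make, was the least selective marker. Its level, given as UMIs of the gene per 10000 UMIs summed over the cells, was 5.75 and 7.70 in endothelial cells, which was 4.20 and 4.14 times the level in T cells.

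Of 8484 genes with at least 20 UMIs in endothelial cells, 155 (1.83%) had a level at least 4 times that of the next of the other 10 cell types in both libraries. The annotation was made from the same values, so these folds describe the cells and were not tested. Led by the lower of the folds in both libraries, the first 20 genes that were found in at least 25% of endothelial cells of each library were *Myct1*, *Kdr*, *Tmem252*, *Robo4*, *Egfl7*, *Emcn*, *Cyyr1*, *Shank3*, *Cdh5*, *Fabp4*, *Slco2a1*, *Adgrl4*, *Plvap*, *Tie1*, *Ptprb*, *Vwf*, *Mmrn2*, *Adgrf5*, *Podxl* and *Inhbb*. *Kdr*, the main signalling receptor for VEGF-A, had 161 and 351 UMIs, and its level was 178 times (117 to 281) that of macrophages and 147 times (93.6 to 243) that of dendritic cells, the next types in each library. *Cdh5* stood 101 times (60.3 to 182) and 61.0 times (45.8 to 82.7) above dendritic cells. *Vwf*, which encodes the clotting factor stored in endothelial granules, stood 36.2 times (25.4 to 52.7) above neutrophils and 32.7 times (24.5 to 44.3) above dendritic cells. *Plvap*, which forms the diaphragms of fenestrated vessels, stood 50.7 times (17.2 to 247) and 41.2 times (21.5 to 90.8) above fibroblasts. Several folds rest on very few UMIs of the next type. *Emcn*, a sialomucin of capillaries and veins, had 1 UMI in fibroblasts of the *Mir34a* F/F library, which gave 83.7 times with an interval of 14.8 to 3325. *Myct1* rested there on 1 UMI of mast cells, which gave 505 times with an interval of 88.8 to 20150, and in the *Mir34a* ΔMye library on 21 UMIs of epithelial cells, which gave 454 times (279 to 772).

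**Figure D1:**
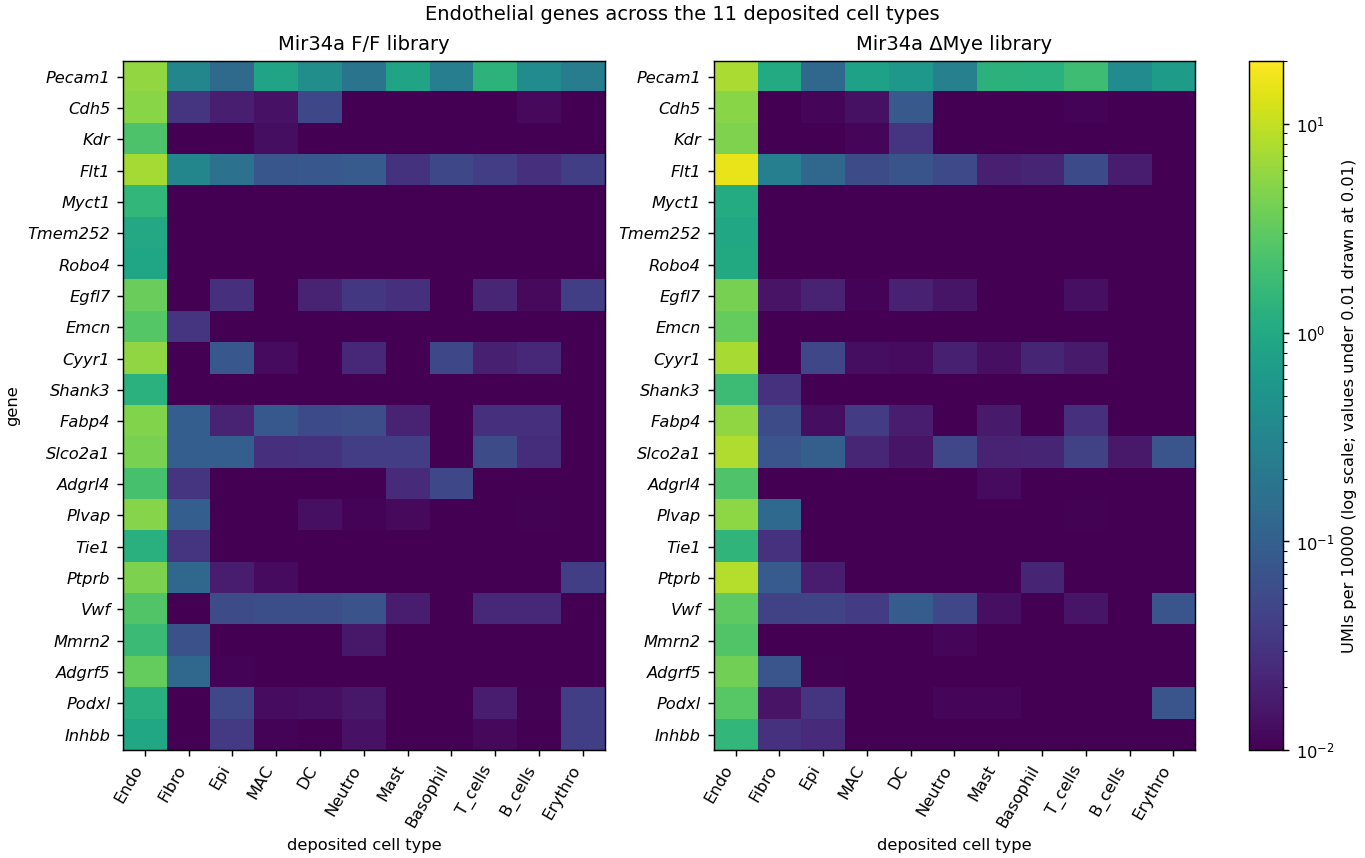
Level of the 4 fixed markers and the 20 leading genes (22 in all, rows) in the 11 deposited cell types (columns), for each library, in UMIs per 10000 on a log color scale. The endothelial column is the brightest of every row, and for *Pecam1* the next type, T cells, lies 4.20 and 4.14 times below it.

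Promoter sequences from RefSeq (GRCm38.p6) were matched for 14 of these 22 genes, and the 250 bases before each start were searched for the letters GGAAGT on either strand (ACTTCC on the other), the core that ETS family factors such as *Erg* and *Fli1* are known to bind. It was found before a start of 7 of the 14 genes, namely *Kdr*, *Flt1*, *Myct1*, *Tmem252*, *Egfl7*, *Tie1* and *Adgrf5*. Of all 27025 genes with a promoter, 22.2% held it, and of the 106 matched among the 155 genes above, 24.5% did, so the larger set stood near the background. A match is a match of letters only. The stretches around it are shown for the receptor genes *Kdr*, *Flt1* and *Tie1*, and for *Egfl7*, which encodes a secreted protein of endothelium, 5′ to 3′ on the gene's strand with the match in capitals.
*Kdr* (chr5:75978640-75978699, minus strand, match starting 217 bases before the start): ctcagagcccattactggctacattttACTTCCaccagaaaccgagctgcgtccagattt
*Flt1* (chr5:147726031-147726090, minus strand, 52 bases before): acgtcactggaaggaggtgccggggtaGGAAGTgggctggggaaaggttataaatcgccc
*Tie1* (chr4:118489899-118489958, minus strand, 82 bases before): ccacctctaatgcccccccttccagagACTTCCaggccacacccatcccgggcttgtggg
*Egfl7* (chr2:26583759-26583818, plus strand, 79 bases before): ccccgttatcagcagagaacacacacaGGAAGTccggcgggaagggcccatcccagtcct

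By function, the genes at least 4 times above the next type came first from the pan-endothelial surface list, 21 of whose 27 tested members passed. Of the VEGF and angiopoietin receptors, 5 of 7 passed (*Flt1*, *Kdr*, *Flt4*, *Tek* and *Tie1*). The co-receptors *Nrp1* and *Nrp2* did not, and fibroblasts held *Nrp1* at 2.09 and 2.79, above 1.73 and 2.31 in endothelial cells. Of the ligands, *Angpt2*, the angiopoietin that endothelium makes itself, was the only one of 5 that passed, at 0.694 and 0.441. *Vegfa* was highest in macrophages, at 3.39 and 3.13 against 0.635 and 0.415 in endothelial cells, and *Angpt1* was highest in mast cells, at 1.67 and 2.42 against 0 and 3 UMIs in all endothelial cells. Of 16 tip cell and sprouting genes 7 passed, and of the 9 tested Notch pathway genes *Dll4* and *Notch4* did. Of 19 tested transcription factors 4 passed, namely *Erg*, *Sox7*, *Sox18* and *Meox1*. The SoxF factor *Sox18* had a level of 0.606 and 1.21, and the ETS factor *Fli1*, which blood cells also use, was only 1.80 and 1.66 times above B cells and T cells. Leukocyte adhesion genes passed in 5 of 11 cases. *Selp*, encoding P-selectin, had a level of 7.68 and 13.2, which was 21.4 and 84.7 times that of basophils, the next type. None of 15 basement membrane genes passed. *Col4a1*, a chain of collagen IV, had 1000 and 1157 UMIs and levels 1.15 and 1.71 times those of fibroblasts. None of the tested chemokine, antigen presentation, interferon-stimulated, glycolysis, cell cycle, immediate-early or heat shock genes passed.

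In the levels of the 8484 genes, fibroblasts were the type most like endothelial cells (Spearman's rho 0.747 and 0.731), ahead of epithelial cells in the *Mir34a* F/F library (0.718) and T cells in the *Mir34a* ΔMye library (0.636). These values are across genes, which are not independent replicates.

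The endothelial cells were split by unsupervised clustering within the type, after the mean of each library had been taken out. It gave 7 clusters, of which 4 had leading genes that matched a fixed vascular list. Cluster 2 (46 cells) was arterial-like, cluster 4 (28 cells) lymphatic-like, cluster 5 (26 cells) venous-like and cluster 6 (18 cells) tip-like. The capillary list summed to 27.1 in cluster 2, above 22.0 for the arterial list, and to at most 15.6 in the other clusters. The name arterial-like therefore does not set arterial cells apart from capillary cells. At a Leiden resolution of 0.4 in place of 0.8 there were 4 clusters, and the arterial-like and tip-like ones were not among the named ones, so values within these depend on the resolution. Every one held cells of both libraries, with 25 and 21 arterial-like, 16 and 12 lymphatic-like, 14 and 12 venous-like, and 15 and 3 tip-like cells in the *Mir34a* F/F and *Mir34a* ΔMye libraries. Some genes that lead the clusters, such as *Vegfc* and *Pgf*, differed between the libraries, so these numbers are no comparison of the libraries, and each list's level in the clusters is a description. Summed over its 7 genes, the lymphatic list had a level of 94.8 in the lymphatic-like cluster and at most 1.79 in each of the others. *Prox1*, the factor that sets lymphatic identity, had a level of 6.66 there and was found in 22 of 28 cells, and *Flt1*, a receptor of blood vessel endothelium, was found in 1 of 28. At least 2 of the 4 fixed markers were found in 17 of the 28 lymphatic-like cells and none in 6. *Ccl21a* was at 33.8 there, although its reads cannot be told apart from those of near-identical copies. In the arterial-like cluster *Cxcl12* was at 4.42 and the ephrin gene *Efnb2* at 4.82, and *Gja4* and *Gja5*, encoding connexins of arteries, were found in 14 and 12 of 46 cells. The VEGF receptor genes *Kdr* (7.18) and *Flt1* (21.9) were also at their highest level there among the clusters. B and plasma cell markers summed to 212 in this cluster, with *Igkc* at 410 in its *Mir34a* F/F cells and 20.6 in its *Mir34a* ΔMye cells, and 1 cell held 78.5% of all *Igkc* UMIs of the *Mir34a* F/F endothelial cells. In the venous-like cluster *Selp* was at 47.8, *Madcam1*, the gut's address molecule for lymphocytes, at 13.9, *Ackr1*, a chemokine-binding receptor of venules, at 4.82, and *Icam1* at 11.1. In the tip-like cluster *Pdgfb*, which draws in pericytes, was at 6.69, *Angpt2* at 2.46 and *Esm1* at 3.28. The tip genes *Dll4* (1.16) and *Apln* (1.57) were no higher there than in the arterial-like cluster (1.79 and 1.64), and the whole tip list summed to 34.1 and 26.3 in these clusters. The arterial-like *Apln* level rested on 5 of 46 cells, all of the *Mir34a* F/F library, and 9 of 18 tip-like cells held *Apln*. The proliferation gene *Mki67* was found in 6 of 18 tip-like cells and in 29 of 223 cells in all.

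**Figure D2:**
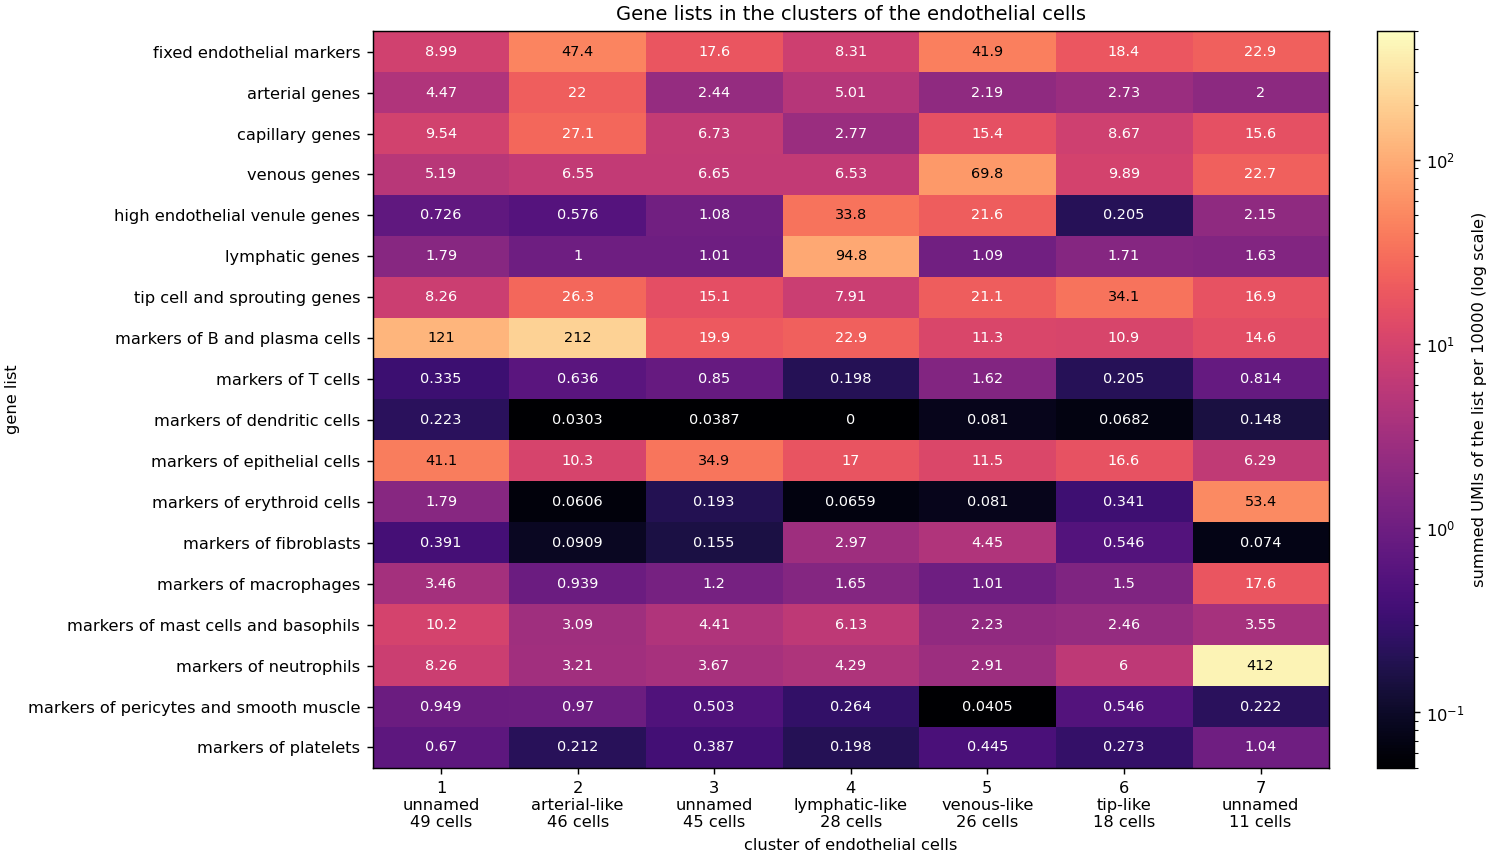
Summed UMIs per 10000 of each fixed gene list (rows) in the 7 clusters of endothelial cells (columns), with the value in each cell of the plot and a log color scale. The lymphatic list stands at 94.8 in cluster 4 and the venous list at 69.8 in cluster 5, and the markers of neutrophils stand at 412 in cluster 7.

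The vessel types were also counted cell by cell without clustering, by gene sets chosen after the data had been seen. At least 3 of 6 lymphatic genes (*Prox1*, *Lyve1*, *Flt4*, *Mmrn1*, *Reln* and *Ccl21a*) were found in 24 of 223 cells. At least 3 of 6 arterial genes (*Gja4*, *Gja5*, *Sema3g*, *Sox17*, *Hey1* and *Bmx*) were found in 18 cells, and at least 3 of 5 venous genes (*Ackr1*, *Selp*, *Sele*, *Madcam1* and *Vcam1*) in 36 cells. No cell met 2 of these counts. The sets leave out members of the fixed lists that crossed the clusters, so this overlap depends on the choice of genes. Of the venous list, *Vwf* was found in 33 of 46 arterial-like cells and *Nr2f2* in 17 of 28 lymphatic-like cells. Of the arterial list, *Efnb2* was found in 13 of 28 lymphatic-like cells. Whether the overlap is smaller than unrelated sets would give was not tested. By the floor of 3 counts of the total, 0 of 223 allows a share of up to 1.35% of cells with such UMIs, and it does not limit expression that gave no UMI.

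The other 3 clusters stayed unnamed. Clusters 1 (49 cells, median 2000 UMIs) and 3 (45 cells, median 3411 UMIs) had epithelial and secretory genes such as *Spink4*, *Wfdc18* and *Mt3* among their leading genes, and the fixed epithelial markers summed to 41.1 and 34.9 in them, against 6.29 to 17.0 in the other clusters. They held 9 and 3 of the 18 cells with none of the 4 endothelial markers. Cluster 7 (11 cells, 3 and 8 by library) had a summed level of neutrophil markers of 412, against 2.91 to 8.26 in the others, macrophage markers at 17.6 and erythroid markers at 53.4. Of the 319 UMIs of the globin gene *Hbb-bs* in it, 318 came from 1 cell. All 11 cells of it had at least 2 endothelial markers, with a level of 22.9 for the 4 together and a median of 10825 UMIs, the deepest of the clusters. Doublets had been removed by the authors with Scrublet, and the part of mRNA from other cells in these values was not tested.

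Markers of the other cell types were measured in all endothelial cells. All 6 epithelial markers were found, with a summed level of 28.9 and 11.55. In the other 9 non-epithelial types their level was 15.7 to 45.2 and 7.29 to 34.8, and epithelial cells had 80.7 and 60.04. All 5 neutrophil markers summed to 5.25 and 74.9, and 1 cell held 54.3% of the UMIs in the *Mir34a* ΔMye library. The 5 B and plasma cell markers summed to 127 and 26.9, and 1 cell held 75.2% of the UMIs in the *Mir34a* F/F library. The 5 erythroid markers summed to 11.2 and 0.143, with *Alas2* at 0 and 95.1% of the UMIs of the *Mir34a* F/F library in 1 cell. Fibroblast markers (2 and 5 of 6 found, *Pdgfra* at 0) summed to 1.03 and 1.40, pericyte and smooth muscle markers to 0.532 and 0.544, T cell markers to 0.635 and 0.817, macrophage markers to 3.07 and 2.93, platelet markers to 0.606 and 0.259, dendritic cell markers to 0.0443 and 0.104, and mast cell and basophil markers to 3.52 and 5.08, with *Mcpt8* and *Prss34* at 0. In each of the neutrophil, B cell and erythroid lists, 1 cell held the larger part of the UMIs of the higher library.

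**Figure D3:**
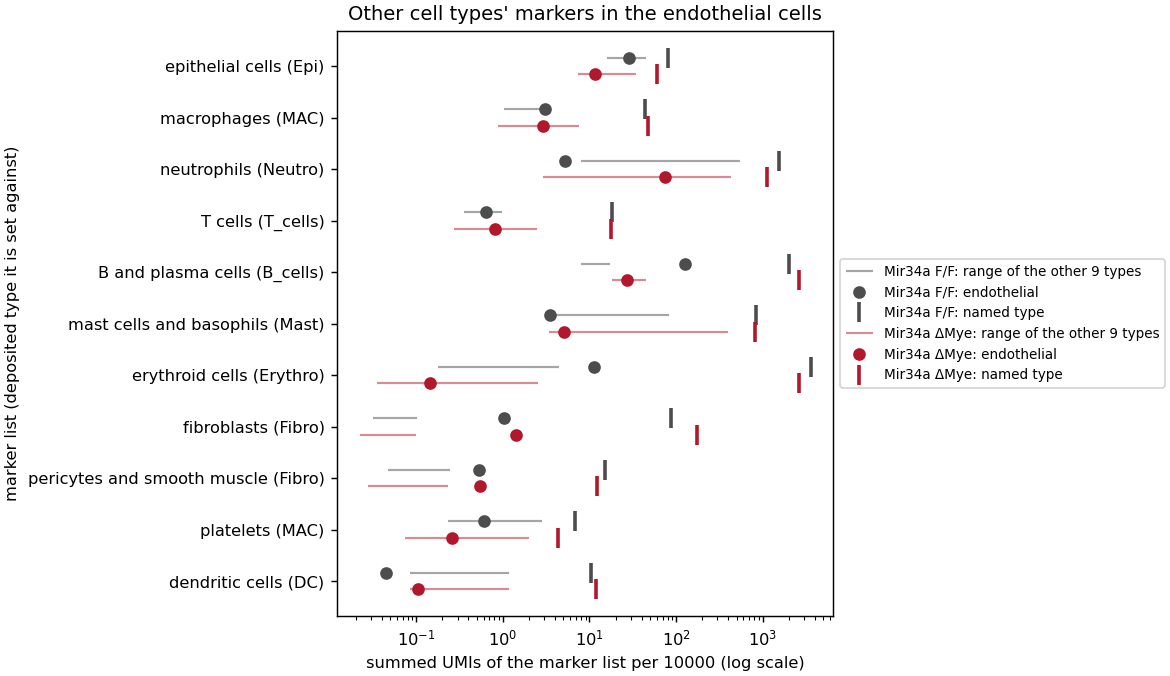
Summed UMIs per 10000 of the markers of 11 other cell types (log axis) in endothelial cells (points) of each library, in the type they are set against (ticks) and over the other 9 types (lines). The endothelial points lie left of the ticks in every row, and among others the B and plasma cell markers (127) and erythroid markers (11.2) of the *Mir34a* F/F library lie right of the line.

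The endothelial share did not differ detectably between the libraries at this depth. It was 0.571% (0.472 to 0.685) of all cells in the *Mir34a* F/F library and 0.576% (0.472 to 0.696) in the *Mir34a* ΔMye library. Of the non-epithelial cells, it was 1.33% (1.10 to 1.60) and 1.23% (1.01 to 1.48).

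Between the libraries, 320 of the 8484 genes (3.77%) were at least 2-fold higher in endothelial cells of the *Mir34a* ΔMye library with a counting interval off 0, and 513 (6.05%) were at least 2-fold lower. With levels taken per total of the 155 endothelial genes in place of all UMIs, an alternative chosen after seeing the data, 84 were higher and 1776 lower. The summed log2 ratio of the 155 genes is 0 under this total by construction. Per total of all UMIs, 27 of the 155 endothelial genes were higher past 2-fold and 3 were lower. Their median log2 ratio (*Mir34a* ΔMye over *Mir34a* F/F) was 0.46, against -0.08 for all 8484 genes. Summing weights deep cells. As the mean over cells of each cell's own level, the median of the 155 genes was 0.13, with 8 higher and 4 lower, and thinned to 1000 UMIs it was 0.03. Calls for means over cells used the interval of the sums moved onto the mean's ratio, since the means had no interval of their own. Per cell, the 155 genes together had a median level of 224 in either library, over a range of 24.2 to 590 and 39.4 to 605. Across the cells of a library, this level had a Spearman's rho with the cell's UMI total of 0.03 in the *Mir34a* F/F library (116 cells) and 0.53 in the *Mir34a* ΔMye library (107 cells). Whether this relation bears on the ratios was not tested, and for most genes named below the ratio as a mean over cells is given beside that of the sums.

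VEGF and angiopoietin receptors were higher in sums in the *Mir34a* ΔMye library in 7 of 7 cases. In sums 1 of 7 was past 2-fold, beside 3.77% of all genes, and over the named clusters 2 were, beside 279 of the genes tested there. The named clusters hold 118 of the 223 cells. Fewer than 8484 genes reached 20 UMIs in them, so counts of genes over the named clusters are not shares of 8484. With the endothelial total none was, beside 84 of all genes. That total is summed over the 155 endothelial genes, 5 of these receptors among them. Over all 8484 genes 3759 were higher in sums and 4725 lower, and of the 155 endothelial genes 128 were higher, so the direction was that of most endothelial genes. *Flt1*, encoding the decoy receptor VEGFR1, was at 7.28 (6.66 to 7.96) and 15.4 (14.5 to 16.3), a log2 ratio of 1.08 (0.93 to 1.23), but of 0.25 as a mean over cells, and it had a UMI in 73.3% and 66.4% of cells. *Kdr* was at 2.38 (2.03 to 2.78) and 4.55 (4.09 to 5.05), a log2 ratio of 0.94 (0.66 to 1.21), and of 0.42 as a mean over cells. *Nrp2*, the co-receptor of lymphatic growth, had a log2 ratio of 0.99 (0.68 to 1.30), and of 0.45 as a mean over cells. Within clusters the values differed. Ratios there are of sums, and in the named clusters the cells of the *Mir34a* ΔMye library were deeper. Their median was 8398 UMIs against 4035 in the arterial-like cluster and 13122 against 4904.5 in the venous-like cluster. It was 4062.5 against 2540.5 in the lymphatic-like cluster and 12326 against 6583 in the tip-like cluster. Whether depth bears on these ratios was not tested. In the arterial-like cluster the log2 ratios were 1.17 (0.92 to 1.43) for *Flt1* and 0.90 (0.48 to 1.33) for *Kdr*, and in the venous-like cluster 0.998 (0.68 to 1.33) and 0.84 (0.13 to 1.61). In the unnamed cluster 3, *Flt1* had a log2 ratio of 0.02 (-0.37 to 0.42). *Tie1* had one of 0.21 (-0.21 to 0.64) in sums and of -0.54 as a mean over cells. In all other cells, *Flt1* had a log2 ratio of -0.65 and *Kdr* of 0.40. *Cdh5* was at 5.19 and 5.11, a log2 ratio of -0.02 (-0.23 to 0.19), and of -0.41 as a mean over cells.

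Among the ligands, *Vegfc*, the growth factor of lymphatic vessels, was higher and *Pgf*, the placental growth factor that binds *Flt1*, was lower in the *Mir34a* ΔMye library. *Vegfc* had 22 and 113 UMIs, in 12 and 23 cells, a log2 ratio of 2.17 (1.504 to 2.90) and of 1.23 as a mean over cells. Arterial-like cells held 90 of the 113 UMIs in the *Mir34a* ΔMye library and 12 of the 22 in the other. *Pgf* had 80 UMIs in 22 cells and 20 UMIs in 5 cells, a log2 ratio of -2.19 (-2.97 to -1.47) and of -1.997 as a mean over cells. The tip-like cluster held 50 of the 80 UMIs, in 9 of its 15 cells, and 8 of the 20, in 1 of its 3 cells. The log2 ratio within it was -0.99 (-2.28 to 0.09). In the lymphatic-like cluster it was 0.20 (-1.45 to 1.98), on 6 and 9 UMIs, the latter in 1 cell. Of 16 tip and sprouting genes 3 were lower past 2-fold in sums, beside 6.05% of all genes, and none was higher past it. With the endothelial total 7 were lower and none higher, beside 1776 and 84 of all 8484 genes. Over the named clusters 3 of 14 were lower and 1 higher, beside 347 and 279 of the genes tested there. The 3 in sums were *Pgf*, *Apln*, encoding the ligand of the apelin receptor, with a log2 ratio of -2.93 (-3.94 to -2.04), and the chemokine receptor gene *Cxcr4*, with one of -1.41 (-2.08 to -0.78). *Apln* was found in 18 of 116 and 6 of 107 cells, and 1 cell held 35.0% of its 80 UMIs in the *Mir34a* F/F library. As means over cells these ratios were -2.64 and -0.99. Arterial-like cells held 54 of the *Apln* UMIs of the *Mir34a* F/F library and none in the other. In the tip-like cluster *Apln* had 17 and 6 UMIs and a log2 ratio of 0.15 (-1.48 to 1.56). *Esm1* had 79 UMIs in each library and a log2 ratio of -0.19 (-0.66 to 0.28), *Dll4* one of 0.20 (-0.33 to 0.73), and *Angpt2* one of -0.66 (-1.34 to 0.01). As means over cells these were -0.15, 0.14 and -0.50. Within the tip-like cluster, *Esm1* (1.89, 1.02 to 2.78) and *Pdgfb* (0.93, 0.30 to 1.54) had log2 ratios above 0, and *Angpt2* had one of 0.998 (-0.08 to 2.03). These rest on the cluster's 3 *Mir34a* ΔMye cells, with the 26 *Esm1* UMIs in 2 of them and the 37 of *Pdgfb* and 14 of *Angpt2* in 3. *Mki67* had 64 and 29 UMIs, a log2 ratio of -1.33 (-2.02 to -0.68) and of -1.42 as a mean over cells. Of 6 tested cell cycle genes 1 was higher in the *Mir34a* ΔMye library in sums, beside 3759 of all 8484 genes. Past 2-fold, 2 were lower in sums, beside 6.05% of all genes, and 1 as a mean over cells, beside 708 of all 8484. Within clusters *Mki67* had a log2 ratio of 0.88 (-0.40 to 2.09) in the tip-like cluster and of -3.06 (-6.26 to -0.89), on 12 and 2 UMIs, in the arterial-like cluster.

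**Figure D4:**
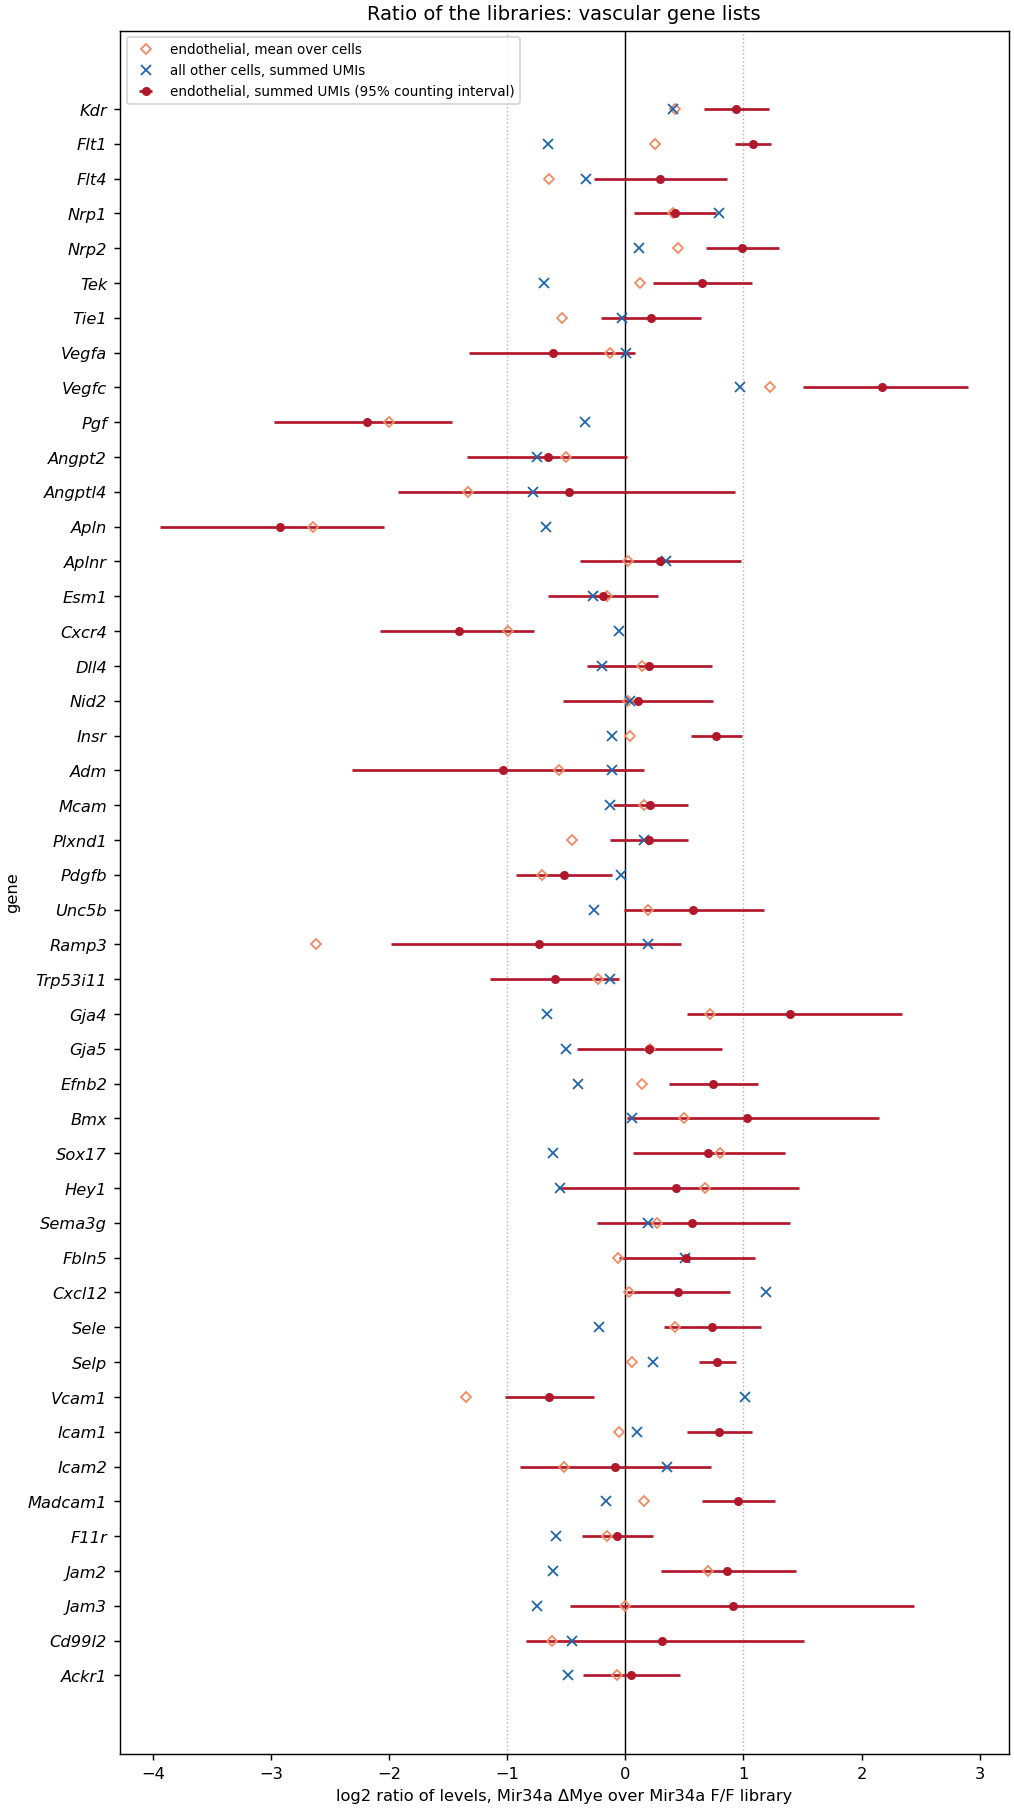
Log2 ratio of levels, *Mir34a* ΔMye over *Mir34a* F/F, for every tested member of 5 vascular lists, as summed UMIs in endothelial cells with their 95% counting interval (filled points), as a mean over endothelial cells (open diamonds) and in all other cells (crosses). *Vegfc* lies at 2.17, *Pgf* at -2.19 and *Apln* at -2.93, and for *Flt1* the diamond (0.25) lies left of the interval of the sum (0.93 to 1.23).

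Arterial genes were higher in sums in 10 of 10 cases, a direction shared by 128 of the 155 endothelial genes. Of them *Gja4* and *Bmx* were past 2-fold in sums, beside 3.77% of all genes. None was past it as a mean over cells or with the endothelial total. *Gja4* had 15 and 45 UMIs in 8 and 10 cells, a log2 ratio of 1.40 (0.53 to 2.35), and of 0.72 as a mean over cells. *Sox17*, an arterial transcription factor, had a log2 ratio of 0.70 (0.06 to 1.35), of 0.80 as a mean over cells, and a UMI in 16.4% and 32.7% of cells. *Nos3*, the endothelial nitric oxide synthase gene, was found in 18.1% and 35.5% of cells, with a log2 ratio of 1.24 (0.65 to 1.87), and of 0.66 as a mean over cells. *Edn1*, encoding the vasoconstrictor endothelin-1, went the other way, at 3.12 and 1.48, a log2 ratio of -1.08 (-1.42 to -0.74), and of -1.35 as a mean over cells. Its log2 ratio was -1.33 (-2.39 to -0.42) in the tip-like cluster, on 11 UMIs in 3 *Mir34a* ΔMye cells. It was -2.90 (-4.90 to -1.35) in the lymphatic-like cluster, on 23 and 4 UMIs, and 1.22 (-0.24 to 2.98) in the venous-like cluster. It was 0.31 (-0.33 to 0.98) in the arterial-like cluster, and -1.10 in all other cells. *Podxl*, a sialomucin of the vessel lumen, had a log2 ratio of 1.24 (0.86 to 1.63), of 0.54 as a mean over cells, and of 1.63 (1.06 to 2.25) in arterial-like cells.

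Genes of leukocyte adhesion were mixed. None of 11 passed 2-fold in sums, beside 3.77% of all genes higher and 6.05% lower. As a mean over cells, over the named clusters and with the endothelial total 1 was lower past it. Of the genes tested under each of these settings 708, 347 and 1776 were lower. In sums *Selp* (0.78, 0.62 to 0.93), *Icam1* (0.79, 0.52 to 1.07) and *Madcam1* (0.95, 0.65 to 1.26) had log2 ratios above 0. As means over cells these were 0.06, -0.06 and 0.16. Within the venous-like cluster *Selp* had 456 and 726 UMIs and a log2 ratio of -0.11 (-0.28 to 0.06). *Madcam1* had one of 0.32 (-0.01 to 0.66) and *Icam1* one of 0.44 (0.06 to 0.83). In the arterial-like cluster *Icam1* had one of 1.503 (0.74 to 2.34), on 18 and 71 UMIs. In the lymphatic-like cluster *Icam1* went the other way, at -1.97 (-3.59 to -0.57), on 18 and 6 UMIs. In the tip-like cluster it had one of 0.43 (-0.68 to 1.45). *Vcam1*, which binds integrins of lymphocytes and monocytes, was lower in the *Mir34a* ΔMye library, at 2.08 and 1.34, a log2 ratio of -0.64 (-1.02 to -0.27), and of -1.35 as a mean over cells. It was lower in the venous-like cluster (-1.52, -2.01 to -1.04) and in the arterial-like cluster (-1.99, -3.02 to -1.04), and higher in all other cells (1.02). In clusters 1 and 3 it was higher, on 1 and 7 and on 1 and 8 UMIs (3.15, 0.19 to 8.64, and 3.17, 0.27 to 8.64), and cluster 7 had 0 and 12 UMIs. *Glycam1*, a ligand of L-selectin in high endothelial venules, had a log2 ratio of -3.58 (-4.45 to -2.81) and of -1.52 as a mean over cells, but all 157 UMIs of the *Mir34a* F/F library came from 1 cell, and 7 cells held the 15 UMIs of the other.

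Of the cytokines, *Il6* had 30 and 86 UMIs in 15 and 23 cells, a log2 ratio of 1.33 (0.72 to 1.98), of 0.75 as a mean over cells, and of -0.26 in thinned cells. *Ccl2* (-1.37, -2.23 to -0.56) and *Cxcl9* (-1.65, -2.57 to -0.79, mean over cells -1.62) had log2 ratios below 0. Of the 10 tested chemokine and cytokine genes, 1 was higher and 2 lower past 2-fold in sums, beside 3.77% and 6.05% of all genes. Over the named clusters none was higher and 5 were lower, beside 279 and 347 of the genes tested there. With the endothelial total none was higher and 5 were lower, beside 84 and 1776 of all 8484 genes. *Ccl2* rested on 1 cell of the *Mir34a* F/F library, which held 72.1% of its 43 UMIs, and without the top cell of each library its log2 ratio was 0.16. Class II antigen presentation genes had a median log2 ratio of 0.93, with *H2-Eb1* (1.01, 0.62 to 1.42, mean over cells 0.24) and *H2-DMb1* (1.47, 0.09 to 3.09) past 2-fold, against a median of 1.004 in all other cells. Only *H2-DMb1* had a mean over cells past 2-fold, and the median over the named clusters was -0.23. *H2-Eb1* was at -0.33 over the named clusters, and the unnamed cluster 7 held 156 of its 254 UMIs. Interferon-stimulated genes had 1 of 10 past 2-fold in sums, *Isg15* (1.01, 0.29 to 1.76, mean over cells 0.58), beside 3.77% of all genes higher past it. None was past it over the named clusters or with the endothelial total. As means over cells 1 was higher and 1 lower past 2-fold, beside 311 and 708 of all 8484 genes. Glycolysis genes were lower in 9 of 11 cases, beside 4725 of all 8484 genes, with a median log2 ratio of -0.45 in endothelial cells and -0.31 in all other cells. None was past 2-fold in sums, and 1 was higher over the named clusters, beside 279 of the genes tested there. With the endothelial total 3 were lower, beside 1776 of all 8484 genes. *Klf2*, the shear stress factor, had a log2 ratio of 0.94 (0.66 to 1.23), of 0.40 as a mean over cells, and of 1.74 (1.18 to 2.35) in the venous-like cluster against 0.03 (-0.48 to 0.54) in the arterial-like cluster.

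Among genes found in at least 25% of endothelial cells of a library, without mitochondrial, immunoglobulin and ribosomal protein genes, the 10 whose interval lay farthest above 0 were *S100a9*, *S100a8*, *Gm15564*, *Zeb2*, *Gm42418*, *Fbxl7*, *Stox2*, *Tspan18*, *Slc7a11* and *Ptprg*. The alarmins *S100a9* and *S100a8* are neutrophil genes. *S100a9* had 172 and 2717 UMIs in 64.7% and 64.5% of cells, with 57.0% of the latter in 1 cell, a log2 ratio of 3.79 (3.57 to 4.02), and of -1.03 over the named clusters. *S100a8* and *Slc7a11* also turned, to -1.04 and -0.32 over the named clusters. *Zeb2*, encoding a transcription factor, was at its highest level in macrophages in both libraries. In endothelial cells it had 34 and 157 UMIs and a log2 ratio of 2.02 (1.48 to 2.60), which was 0.79 over the named clusters and 1.47 without the top cell of each library. *Gm15564* had one of 2.09, of 1.66 over the named clusters and of 1.67 in all other cells. *Gm42418* overlaps ribosomal RNA and took 223 and 591 UMIs per 10000, with a log2 ratio of 0.93 in all other cells. *Stox2*, *Tspan18*, *Ptprg* and *Fbxl7* were higher in sums with an interval off 0 in more than 1 named cluster. Over all endothelial cells thinned to 1000 UMIs, their log2 ratios were 0.87, 1.07, 0.02 and 0.88, in the same order. *Tspan18*, encoding a tetraspanin, was found in 25 of 116 and 47 of 107 cells, with a log2 ratio of 1.72 (1.17 to 2.31), of 1.19 as a mean over cells, and of 0.08 in all other cells. In the lymphatic-like and venous-like clusters its log2 ratio was 2.79 (1.57 to 4.30) and 1.61 (0.04 to 3.61). *Stox2* had a log2 ratio of 1.52 (1.26 to 1.79), of 0.78 as a mean over cells and of 1.56 (1.02 to 2.14), 0.81 (0.22 to 1.43) and 1.30 (0.82 to 1.82) in the arterial-like, lymphatic-like and venous-like clusters. *Ptprg*, a receptor phosphatase gene, had a log2 ratio of 1.32 (1.12 to 1.52) but of 0.26 as a mean over cells. It was 1.17 (0.84 to 1.499) in the arterial-like and 1.77 (1.27 to 2.31) in the venous-like cluster. *Fbxl7* had a log2 ratio of 1.61 (1.31 to 1.91), of 0.72 as a mean over cells, and of 1.80 (1.34 to 2.29) and 2.08 (0.98 to 3.38) in the arterial-like and lymphatic-like clusters.

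Among the same genes, the 10 whose interval lay farthest below 0 were *Mt3*, *Ptn*, *Wfdc18*, *Mt4*, *Ccn2*, *Fxyd3*, *Aspscr1*, *S100a6*, *Krt8* and *Thbs1*. For 8 of these, all but *Ccn2* and *Thbs1*, epithelial cells had the highest level of the other types in at least 1 library. *Krt8*, an epithelial keratin, was at 11.4 and 3.86 in endothelial cells, a log2 ratio of -1.56 (-1.76 to -1.37), of -0.98 as a mean over cells, and of -1.07 in all other cells, beside summed epithelial markers of 28.9 and 11.55. The part of epithelial mRNA in these genes was not tested. *Thbs1*, encoding the angiogenesis inhibitor thrombospondin-1, was at 9.63 (8.91 to 10.4) and 3.31 (2.91 to 3.74), in 90 of 116 and 56 of 107 cells. Its log2 ratio was -1.54 (-1.76 to -1.33), of -1.51 as a mean over cells, and of -0.25 in all other cells. Within the arterial-like, lymphatic-like, venous-like and tip-like clusters it was -1.43 (-1.98 to -0.90), -2.33 (-3.23 to -1.52), -1.31 (-1.75 to -0.88) and -1.83 (-2.64 to -1.11), in the same order. The tip-like value rests on 17 UMIs in 3 *Mir34a* ΔMye cells. Neutrophils and macrophages held *Thbs1* at 15.7 each in the *Mir34a* F/F library and at 14.8 and 12.7 in the other. *Ccn2*, the connective tissue growth factor gene, had 97 UMIs in 30 cells and 20 UMIs in 15 cells, a log2 ratio of -2.47 (-3.24 to -1.76), of -2.23 as a mean over cells, and of -1.06 in all other cells. *Fn1*, encoding fibronectin, was the 1 of 15 basement membrane genes past 2-fold, beside 6.05% of all genes lower past it. Its log2 ratio was -1.09 (-1.41 to -0.78), and -1.06 as a mean over cells. It was -2.48 (-3.96 to -1.31) in the tip-like cluster, on 6 UMIs in 3 *Mir34a* ΔMye cells, and 0.07 (-0.50 to 0.64) in the lymphatic-like cluster. *Col4a1* and *Col4a2* had log2 ratios of 0.02 (-0.10 to 0.14) and -0.00 (-0.16 to 0.15).

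**Figure D5:**
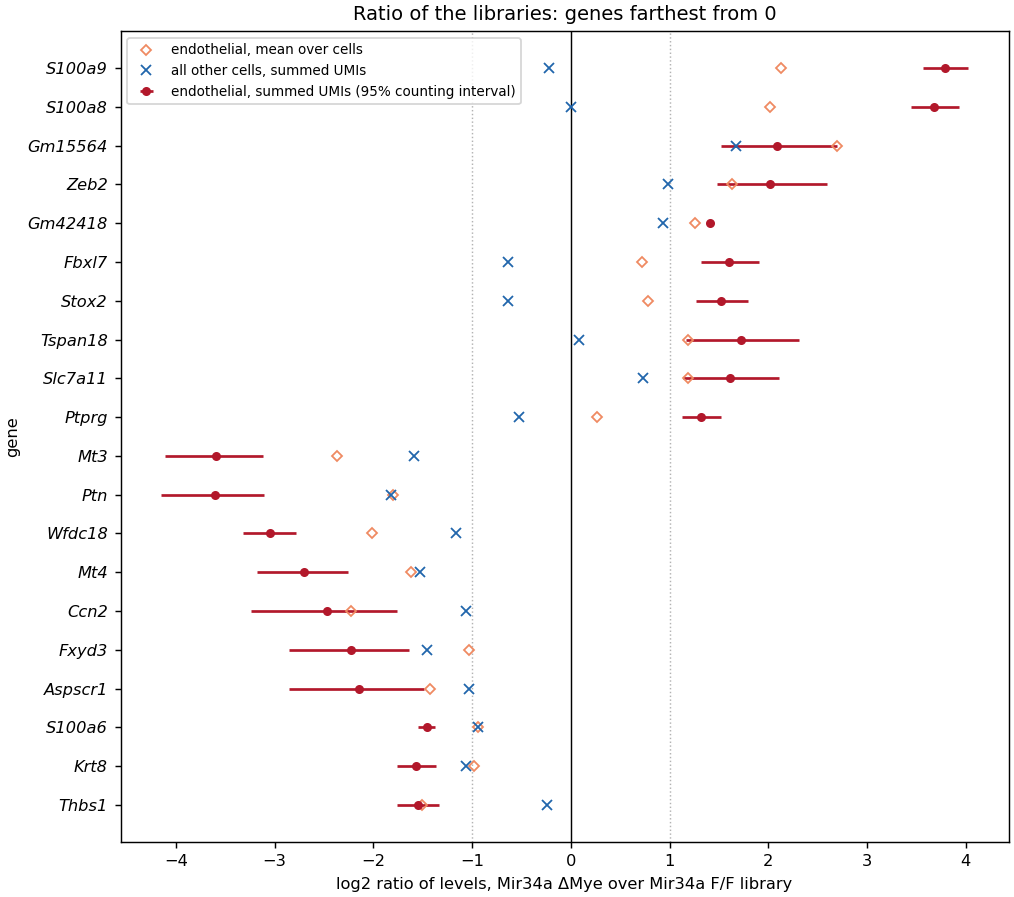
Log2 ratio of levels, *Mir34a* ΔMye over *Mir34a* F/F, for the 10 genes in each direction named by this rule, drawn as in the plot of the vascular lists. For *Thbs1* the mean over cells (-1.51) lies on the sum (-1.54) and apart from all other cells (-0.25), and for *S100a9* the sum lies at 3.79 and the mean over cells at 2.12.

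As groups, the 13 mitochondrial genes took 4.38% and 8.19% of endothelial UMIs, a log2 ratio of 0.90 (0.88 to 0.92), and 13 of 13 were higher in the *Mir34a* ΔMye library, and in all other cells their summed log2 ratio was 0.70. Ribosomal protein genes took 12.2% and 8.71%, and 80 of 80 tested were lower, with a median log2 ratio of -0.46 in endothelial cells and -0.43 in all other cells. Immunoglobulin genes took 1.93% and 0.507%, and 1 cell of the *Mir34a* F/F library held 78.5% of its UMIs of *Igkc*. Without the top cell of each library, *Igkc* had a log2 ratio of -0.03.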

How the data were processed

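The authors aligned reads of 10x 3′ v3.1 libraries to mm10 with Cell Ranger (7.2.0 per the labels), stated that they kept cells above 200 mRNAs with a mitochondrial share under 25%, removed doublets with Scrublet and deposited natural log values of 1 plus UMIs per 10000, made with Seurat's LogNormalize. Undoing the log and dividing by each cell's smallest value gave whole UMIs (largest deviation 1.5e-10). Library and cell type were taken from the deposited annotation. The members and lists were chosen with earlier results of these data known.

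Levels were UMIs summed over cells per 10000 summed UMIs. Counts had exact Poisson intervals, shares exact binomial (Clopper-Pearson) intervals and ratios exact conditional binomial intervals, all at 95%. For means over cells, the interval of the summed ratio was moved onto the ratio of the means, and it does not cover the spread over cells. With 1 library of pooled mice per genotype, no p-value was computed. Genes needed 20 UMIs. Named genes were the 4 markers, the 20 leading over the next type, the 10 farthest from 0 in each direction (in at least 25% of cells of a library, without mitochondrial, immunoglobulin and ribosomal protein genes), and, of each list, up to 4 members with the most UMIs, those past 2-fold and those at 0. Genes given within clusters were chosen after their values were seen. Cells were clustered with scanpy 1.11.5 (library means subtracted, 1000 variable genes, 15 components, 10 neighbours, Leiden resolution 0.8). Scripts were tested on simulated data. Python 3.11.15 and scipy 1.17.1 were used.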

Additional observations from a re-analysis of the deposited data

Results flagged for a closer look

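For 11 genes the ratio between the libraries lay in opposite directions in endothelial cells and in all other cells, with an endothelial ratio past 2-fold, a ratio past 0.5 on the log2 scale in the other cells, and both counting intervals off 0. Each of the 11 was a named gene or a member of a fixed list. The share of all 8484 genes that met this rule is not given, so the number cannot be set against a background. The difference between these cell groups was not tested, since each is 1 library per genotype. In endothelial cells, the log2 ratio (*Mir34a* ΔMye over *Mir34a* F/F) was 1.08 for *Flt1*, 1.24 for *Podxl*, 1.61 for *Fbxl7*, 1.52 for *Stox2*, 1.32 for *Ptprg*, 1.40 for *Gja4* and 1.62 for *Acta2*, and it was -0.65, -0.99, -0.63, -0.63, -0.53, -0.66 and -0.92 in all other cells, in the same order. As means over endothelial cells the log2 ratio was 0.25 for *Flt1*, 0.54 for *Podxl*, 0.72 for *Fbxl7*, 0.78 for *Stox2*, 0.26 for *Ptprg* and 0.72 for *Gja4*. None of these means was past 2-fold. *Acta2*, a gene of smooth muscle, rested on 6 and 21 endothelial UMIs in 4 and 4 cells. In the other direction, the log2 ratio of the sums was -1.65 for *Cxcl9*, -1.37 for *Ccl2*, -2.48 for *Jchain* and -2.19 for *Igkc* in endothelial cells, and 0.64, 1.26, 1.84 and 1.56 in all other cells. For *Ccl2*, *Jchain* and *Igkc*, 1 cell of the *Mir34a* F/F library held 72.1%, 59.1% and 78.5% of its UMIs of the gene. Without the top cell of each library, the log2 ratio was 0.16 for *Ccl2*, -1.26 for *Jchain* and -0.03 for *Igkc*.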

How the results depend on the processing

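Settings tried were the mean over cells, thinning to 1000 UMIs, cells with at least 2 fixed markers, stricter cell quality and other totals. Leaving out the top cell, the named clusters alone, and a total over the 155 endothelial genes were chosen after seeing the data. No paired analysis was possible because each genotype has 1 library and no test was made. The 155 genes numbered 124 to 180 under the alternatives. With at least 50 UMIs, 172 genes were higher and 227 lower. With the total over endothelial genes, 84 were higher and 1776 lower. Over the named clusters, where fewer genes reached 20 UMIs, 279 were higher, 160 of them among the 320, and 347 lower, 196 of them among the 513. The share of non-epithelial cells was 1.33% and 1.23%, and resolution 0.4 gave 4 clusters, of which a venous-like and a lymphatic-like one were named and no arterial-like or tip-like one was. The median log2 ratio of the 155 genes was 0.13 as a mean over cells, 0.030 thinned, 0.60 with stricter quality, 0.57 with immunoglobulin genes, mitochondrial genes and those like ribosomal RNA left out of the total and -0.0092 with the total over endothelial genes. For all tested genes it was 0.019 and -0.56 under the last 2 of these. The total over endothelial genes is summed over the same 155 genes, so their median near 0 under it was set in advance. Of 575 log2 ratios of 73 genes under alternatives, 49 had the other sign. Of these, 29 were in genes whose counting interval lay off 0 and 20 in genes whose interval spanned 0. Apart from those 29, 153 of the 575 lay outside the counting interval of the main ratio. Among them were 40 of 69 thinned and 36 of 73 as means over cells. Of 220 levels 82 moved beyond their counting interval. The cause was not tested. For the genes with an interval off 0, the log2 ratios of the other sign with the total over endothelial genes were -0.051 for *Pecam1*, -0.22 for *Egfl7*, -0.084 for *Cyyr1*, -0.23 for *Fabp4* and -0.21 for *Adgrf5*. As means over cells they were -0.11 for *Egfl7*, -0.0087 for *Cyyr1*, 0.15 for *Ccl2*, -0.24 for *Thbd*, 0.12 for *Mcm2* and 0.024 for *Jchain*. Thinned, they were -0.42 for *Egfl7*, -0.12 for *Cyyr1*, -0.040 for *Shank3*, -0.18 for *Slco2a1*, -0.078 for *Mmrn2*, -0.83 for *Inhbb*, 0.24 for *Ccl2*, -0.26 for *Il6* and -0.67 for *Thbd*. Over the named clusters they were -0.027 for *Fabp4*, -1.03 for *S100a9*, -1.04 for *S100a8*, -0.32 for *Slc7a11*, -0.33 for *H2-Eb1*, -1.43 for *Retnlg* and 0.37 for *Hba-a1*. *Tpsb2* had -0.068 with at least 2 markers and *Ccl2* 0.16 without the top cell.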
